A study of Arabidopsis thaliana with 20 samples.

Results

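The genes described here are those of Arabidopsis thaliana seedlings whose transcripts were more abundant at 27 °C than at 21 °C in wild type and showed little or no such increase in ein2 and in lhp1. They were chosen by their measured values. A gene's CPM, its read count per 1000000 counts of the library, was averaged over the 2 replicates of each group, and its warming change was log2((CPM at 27 °C + 0.5)/(CPM at 21 °C + 0.5)). Genes were kept with at least 2 CPM in wild type at 27 °C, a warming change of at least 0.8 in wild type, and a warming change of 0.3 or lower in both ein2 and lhp1. The rule also drops 4 genes by name. It left 87 genes of the 36799 counted. Another 459 genes met the wild-type limits and are not members.

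Poly(A) RNA was sequenced from whole seedlings of 5 genotypes. All plants grew in short days at 21 °C on plates with sucrose. Warmed groups were moved to 27 °C when 5 days old, at Zeitgeber time (ZT) 4, and had spent 4 h there by ZT 8. The genotypes were ein2 (ein2-5), lhp1 (lhp1-3), ein3 eil1 (ein3-1eil1-1), ein2 lhp1 (ein2-5lhp1-3) and wild type (Col-0), each at 27 °C and at 21 °C with 2 replicates, which gave 10 groups and 20 libraries. Each mutated gene is represented by 1 allele. The labels do not say that replicates came from separate plantings, so every p-value below measures only the spread between these samples.

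EIN2 is a membrane protein of the endoplasmic reticulum that passes the ethylene signal to the nucleus. There the transcription factors EIN3 and EIL1 switch on ethylene-responsive genes. LHP1 binds histone H3 trimethylated at lysine 27, the mark that polycomb proteins place on repressed genes. Warm ambient temperature makes seedlings elongate and changes the transcript levels of many genes, through phytochrome B, the PIF factors and auxin among others.

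Library totals lay between 24153109 and 47566071 counts. EIN2 lay between 20.2 and 29.0 CPM in the 8 libraries of ein2 and ein2 lhp1, against 49.1 to 95.5 CPM in the other 12. EIN3 and EIL1 were likewise lower in ein3 eil1 than in every other library, whereas LHP1 transcript ranges overlapped, at 4.90 to 10.2 CPM in lhp1 and ein2 lhp1 against 8.94 to 16.6 CPM elsewhere. The 4 floral organ identity genes used as markers of flowers summed to between 31.4 and 57.0 CPM in lhp1 and ein2 lhp1, against 0.928 to 3.89 CPM in the other genotypes. A list of 13 seed genes summed to between 70.2 and 552 CPM in ein2 and lhp1, and to between 18.9 and 22.5 CPM in wild type. In ein3 eil1 it summed to between 115.8 and 134.5 CPM. Within lhp1 the seed sum was 70.2 and 73.3 CPM at 27 °C against 492.5 and 495.4 CPM at 21 °C, and within ein2 lhp1 it was 788.3 and 772.7 CPM at 27 °C against 475.7 and 484 CPM at 21 °C. Sums over 4 green-tissue and 4 root markers moved with temperature in some genotypes. The markers in a sum did not all move alike. In wild type the warming change was -0.39 for RBCS1A and -0.48 for CAB1, but 0.27 each for RCA and PSAD1. PYK10 made up most of the root sum. In wild type at 21 °C it had 2480 CPM, against 9.7 to 40.5 CPM for SHR, SCR and COBL9. In ein2 lhp1 PYK10 (0.20) and COBL9 (0.07) went up, and SHR (-0.16) and SCR (-0.17) went down. The green-tissue sum was 40510 and 41180 CPM at 27 °C against 49890 and 49630 CPM at 21 °C in wild type, 45070 and 45430 CPM against 46380 and 46090 CPM in ein2, and 39710 and 38780 CPM against 39970 and 39120 CPM in lhp1. It was also lower at 27 °C in ein3 eil1 (52920 and 52610 against 61870 and 60780 CPM) and in ein2 lhp1 (56570 and 54970 against 64810 and 63340 CPM). The root sum was 3507 and 3554 CPM at 27 °C against 2550 and 2548 CPM at 21 °C in wild type, 4730 and 4713 CPM against 5651 and 5564 CPM in ein2, and 3769 and 3716 CPM against 2939 and 2852 CPM in lhp1. It was higher at 27 °C in ein3 eil1 (2807 and 2791 against 2230 and 2220 CPM) and in ein2 lhp1 (3473 and 3461 against 3085 and 2997 CPM). The part of seed, floral, green-tissue and root transcripts in the results below was not tested. In whole seedlings, fewer cells of a type and less RNA per cell cannot be told apart.

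In wild type the warming change of the members ranged from 0.80 to 1.88, with a median of 0.90. In ein2 their median was 0.07 with a range from -0.64 to 0.30, and in lhp1 it was 0.10 with a range from -0.90 to 0.30. These values chose the members and are given without a test. The other 459 warm-induced genes had a median warming change of 0.44 in ein2, 0.55 in lhp1 and 0.93 in wild type. In the mutants that the rule did not use, the median of the members was 0.54 in ein3 eil1 and 0.14 in ein2 lhp1.

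**Figure D1:**
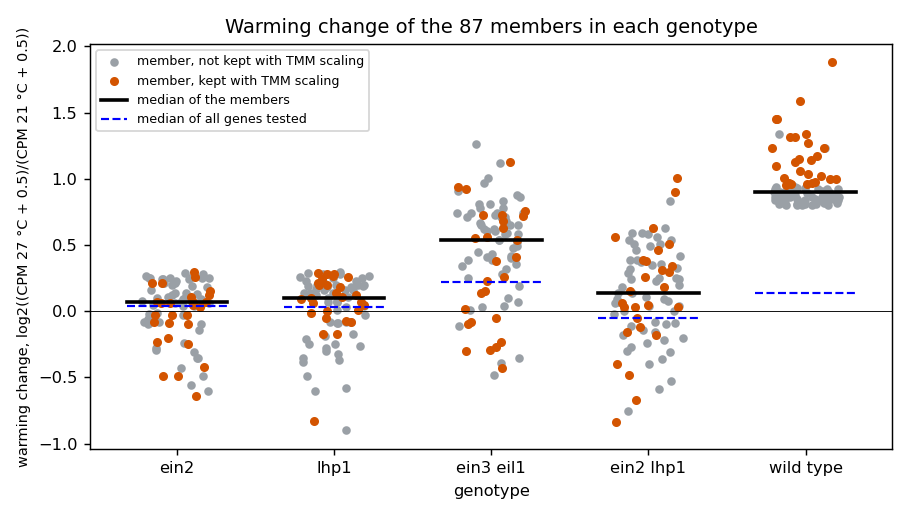
Warming change of each of the 87 members (points) by genotype, as log2((CPM at 27 °C + 0.5)/(CPM at 21 °C + 0.5)), with the median of the members (black line) and of the 21987 genes tested (dashed line). Orange points are the 27 members that the rule also keeps with TMM library sizes. The members' median is 0.07 in ein2, 0.10 in lhp1, 0.54 in ein3 eil1, 0.14 in ein2 lhp1 and 0.90 in wild type.

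Membership depends on how libraries are scaled. With CPM from column sums, the median warming change of all 21987 genes tested was 0.04 in ein2, 0.03 in lhp1, 0.22 in ein3 eil1, -0.05 in ein2 lhp1 and 0.14 in wild type. TMM library sizes, which set those medians to about 0, gave the members a median of 0.02 in ein2, 0.07 in lhp1, 0.33 in ein3 eil1, 0.18 in ein2 lhp1 and 0.75 in wild type. The same rule with TMM library sizes kept 32 genes, of which 27 were among the 87. ADH1, LBD41, HB1, PCO1, SRO5, RAP2.6, GolS2, ZIP3, MYB94 and ABCG16 are among these 27, whereas HRA1, RBOHB, CER1, EXT11, CPK23 and XTH26 are not. Without replicate 1 of wild type at 27 °C, the rule with column sums kept 133 genes.

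Each limit of the rule passes through closely spaced genes. Near the limit on the change in wild type, AT1G70430 and AT2G14520 lay just inside, and PRP1 and SNL2 just outside, at 0.80 and 0.79. Near the limit in ein2, AT2G44735 and AT5G03990 lay inside at 0.30 and 0.29, and AT3G28690 and AT2G21560 outside at 0.32 each. TBP1 (0.30) and AT4G37480 (0.29) lay just inside the limit in lhp1, and AT4G23050 (0.30) and AT3G19620 (0.31) just outside. AT2G08100 (2.00 CPM) and AT1G60095 (2.03 CPM) lay just above the expression limit, and AT1G61450 (1.96 CPM) and FRB1 (1.86 CPM) just below it.

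Each mutant mean was set against the midpoint, on the log2(CPM + 0.5) scale, between wild type at 27 °C and at 21 °C. The wild-type, ein2 and lhp1 values compared here also chose the members, so the counts are a description. That choice makes wild type high at 27 °C and low at 21 °C. Other genes were not classed in this way. In ein2, 52 members lay below the midpoint at both temperatures and 22 lay at or above it at both. In lhp1 the larger group was the other one, with 24 members below at both temperatures and 42 at or above it at both. Of the 52 that were low in ein2, 24 were high in lhp1 at both temperatures and 14 were low in lhp1 at both. Those shares were close to the 42 and 24 of all 87 members. In ein2 lhp1, 65 members stayed below the midpoint at both temperatures, 12 stayed at or above it and 9 passed it upward on warming, whereas in ein3 eil1 34 passed it upward, 35 stayed below and 17 stayed above. At 27 °C the median of the members relative to wild type at 27 °C was -0.59 in ein2, -0.33 in lhp1, -0.43 in ein3 eil1 and -0.83 in ein2 lhp1 on this log2 scale. These levels and classes use column sums and were not recomputed with TMM library sizes. At 27 °C the TMM factors were 1.105 and 1.123 in wild type, 1.053 and 1.058 in ein2, and 1.102 and 1.081 in lhp1. They were 1.058 and 1.052 in ein3 eil1 and 0.8553 and 0.8627 in ein2 lhp1. The lower factors of ein2 lhp1 would raise its levels relative to wild type, so its rank among the genotypes is not settled. At 21 °C the factors were 0.8921 and 0.8874 in ein3 eil1 and 0.9033 and 0.8836 in ein2 lhp1. With TMM library sizes the members' median warming change went from 0.54 to 0.33 in ein3 eil1 and from 0.14 to 0.18 in ein2 lhp1. The counts of 34 and 9 that passed the midpoint upward therefore depend on the scaling too.

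**Figure D2:**
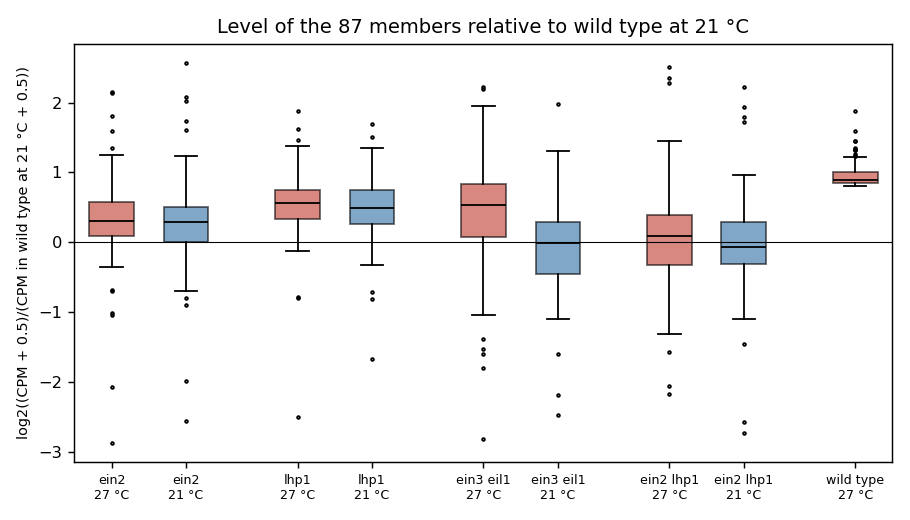
Level of the 87 members in each group as log2((CPM + 0.5)/(CPM in wild type at 21 °C + 0.5)), with 27 °C (red) left of 21 °C (blue) in each genotype. CPM are from column sums, not TMM library sizes. Boxes span the quartiles, the line is the median, whiskers reach the last value within 1.5 box lengths, and dots lie beyond. The medians are 0.30 at both temperatures in ein2, 0.57 at 27 °C and 0.49 at 21 °C in lhp1, 0.53 and -0.02 in ein3 eil1, 0.09 and -0.06 in ein2 lhp1, and 0.90 in wild type at 27 °C.

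Of a list of 18 genes of the low-oxygen response, 7 are members: ADH1, HB1, LBD41, PCO1 (AT5G15120), HRA1 (AT3G10040), SRO5 and RBOHB. That list, like the other groupings by role below, was drawn up after values had been seen, so its overlap is a description. Of the 21987 genes tested, 87 are members. SUS4, ACO1 and FTM1, also on the list, changed by 1.78, 1.17 and 3.08 in wild type and by -0.52, -0.51 and -0.30 in ein2. They exceeded the limit in lhp1, at 0.39, 0.45 and 0.47, and FTM1 is also dropped by name. The rest of the list, PDC1, SUS1, PCO2, HRE1, HRE2, ETR2, AT2G34390 and CML38, changed by 0.16 to 0.68 in wild type, under the limit of 0.8. ADH1 makes the alcohol dehydrogenase of ethanolic fermentation, HB1 a haemoglobin that scavenges nitric oxide when oxygen is low, and LBD41 a LOB-domain transcription factor. PCO1 is a plant cysteine oxidase that marks group VII ERF factors for degradation in the presence of oxygen, HRA1 attenuates the action of those factors, and RBOHB is an NADPH oxidase. The 250 bases before the annotated start of 5 of these genes and of RAP2.6, an ERF transcription factor gene, are shown because these members are the low-oxygen and ERF genes whose levels in each library of ein2, lhp1 and wild type are given below. Capitals mark matches, on either strand, to the motifs searched for. Those found here are the G-box CACGTG, the PBE-box CACATG, the ABA-response type ACGTGGC and the EIN3 type ATGNANCT. The GCC-box GCCGCC, heat element GAANNTTC, evening element AAAATATCT, telobox AAACCCTA, GAGA repeat GAGAGAGA, site II TGGGCC and W-box TTGACC were searched for too. They had no match in these windows. The windows come from the RefSeq sequence of TAIR10.1, and each is written 5′ to 3′ on the strand of its gene.
ADH1 (chr1:28975005-28975254, plus strand): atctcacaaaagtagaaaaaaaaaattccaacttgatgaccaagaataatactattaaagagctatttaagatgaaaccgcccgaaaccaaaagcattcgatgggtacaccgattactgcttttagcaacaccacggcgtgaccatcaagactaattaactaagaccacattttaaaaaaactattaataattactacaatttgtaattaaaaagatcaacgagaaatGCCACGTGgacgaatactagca
LBD41 (chr3:538127-538376, minus strand): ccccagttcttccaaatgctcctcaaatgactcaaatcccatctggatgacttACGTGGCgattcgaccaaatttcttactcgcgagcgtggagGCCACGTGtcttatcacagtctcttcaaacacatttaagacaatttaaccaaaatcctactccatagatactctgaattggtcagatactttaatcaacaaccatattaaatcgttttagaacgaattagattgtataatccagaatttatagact
PCO1 (chr5:4898391-4898640, plus strand): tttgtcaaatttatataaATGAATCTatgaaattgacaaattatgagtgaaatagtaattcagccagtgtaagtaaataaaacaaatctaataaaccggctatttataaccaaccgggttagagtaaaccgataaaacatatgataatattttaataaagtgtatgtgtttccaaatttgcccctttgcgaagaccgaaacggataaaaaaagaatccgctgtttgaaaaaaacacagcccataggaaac
HB1 (chr2:6983778-6984027, minus strand): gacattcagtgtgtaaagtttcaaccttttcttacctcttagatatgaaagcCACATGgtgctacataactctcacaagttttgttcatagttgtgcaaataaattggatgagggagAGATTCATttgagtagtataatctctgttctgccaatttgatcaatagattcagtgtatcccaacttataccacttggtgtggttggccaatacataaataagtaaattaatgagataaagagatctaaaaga
RAP2.6 (chr1:16263555-16263804, plus strand): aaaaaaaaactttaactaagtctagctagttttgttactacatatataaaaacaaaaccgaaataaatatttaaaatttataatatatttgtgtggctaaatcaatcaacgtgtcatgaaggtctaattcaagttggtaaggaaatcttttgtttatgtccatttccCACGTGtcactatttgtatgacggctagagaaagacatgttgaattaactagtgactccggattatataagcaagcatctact
HRA1 (chr3:3098418-3098667, minus strand): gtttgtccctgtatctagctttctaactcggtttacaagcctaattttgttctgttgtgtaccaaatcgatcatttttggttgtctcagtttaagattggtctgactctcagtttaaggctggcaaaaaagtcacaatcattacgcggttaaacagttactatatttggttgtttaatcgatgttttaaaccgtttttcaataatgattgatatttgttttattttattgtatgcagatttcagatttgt

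In these windows ADH1 has a G-box that overlaps an ABA-response type motif near the start, and LBD41 has the same overlapping pair and a further ABA-response type motif. RAP2.6 has a G-box alone. HB1 has a PBE-box and an EIN3 type motif, and PCO1 an EIN3 type motif only, of the motifs searched. None of them was found in the window of HRA1. A match of letters does not show that a factor binds there.

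ADH1 (AT1G77120, chr1:28975255-28977417, plus strand) had the largest warming change in wild type among the members. In ein2 it read 32.2 and 30.9 CPM at 27 °C, against 45.0 and 39.6 CPM at 21 °C. In lhp1 it read 22.8 and 20.9 CPM at 27 °C against 17.9 and 18 CPM at 21 °C. Wild type had 26.3 and 26.0 CPM at 27 °C and 7.63 and 5.83 CPM at 21 °C. Both mutants stood above the cool wild-type libraries at both temperatures, and in ein2 the warm libraries lay below the cool ones. ADH1 overlaps a locus on the opposite strand, and strand was not used in counting.

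LBD41 (AT3G02550, chr3:536500-538126, minus strand) read 6.79 and 6.59 CPM in ein2 at 27 °C against 7.27 and 7.10 CPM at 21 °C. In lhp1 it read 10.9 and 10.4 CPM at 27 °C against 9.43 and 7.86 CPM at 21 °C, and in wild type 12.8 and 12.7 CPM at 27 °C against 5.50 and 4.53 CPM at 21 °C. The 4 lhp1 libraries thus lay above the cool wild-type pair and below the warm pair.

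PCO1 (AT5G15120, chr5:4898641-4900734, plus strand) read 3.06 and 2.99 CPM in ein2 at 27 °C against 3.91 and 3.22 CPM at 21 °C. In lhp1 its 4 libraries were nearly level, with 6.71 and 6.96 CPM at 27 °C and 6.68 and 7.04 CPM at 21 °C. In wild type it had 7.38 and 8.67 CPM at 27 °C and 3.47 and 3.48 CPM at 21 °C. The ein2 libraries lay near the cool wild-type level and the lhp1 libraries near the warm one.

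HB1 (AT2G16060, chr2:6982531-6983777, minus strand) showed the same contrast between the mutants. It had 2.46 and 3.10 CPM in ein2 at 27 °C against 4.74 and 4.49 CPM at 21 °C, 14.4 and 14.1 CPM in lhp1 at 27 °C against 12.2 and 11.4 CPM at 21 °C, and 13.3 and 12.6 CPM in wild type at 27 °C against 6.45 and 5.80 CPM at 21 °C. All 4 lhp1 libraries exceeded the cool wild-type libraries, and all 4 ein2 libraries lay below them.

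HRA1 had 6.57 and 5.87 CPM in ein2 at 27 °C against 5.38 and 5.02 CPM at 21 °C, 5.02 and 6.60 CPM in lhp1 at 27 °C against 7.48 and 7.79 CPM at 21 °C, and 10.4 and 9.40 CPM in wild type at 27 °C against 4.62 and 5.57 CPM at 21 °C. SRO5, a gene related to RCD1, averaged 1.10 CPM in ein2 at 27 °C against 1.39 at 21 °C, 1.74 CPM in lhp1 at 27 °C against 1.43 at 21 °C, and 2.4 CPM in wild type at 27 °C against 0.828 at 21 °C. RBOHB averaged 2.78 CPM in ein2 at 27 °C against 3.69 at 21 °C, 2.20 CPM in lhp1 at 27 °C against 2.94 at 21 °C, and 4.64 CPM in wild type at 27 °C against 2.27 at 21 °C. In ein2 at 27 °C all 3 stood closer to the cool than to the warm wild-type mean.

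**Figure D3:**
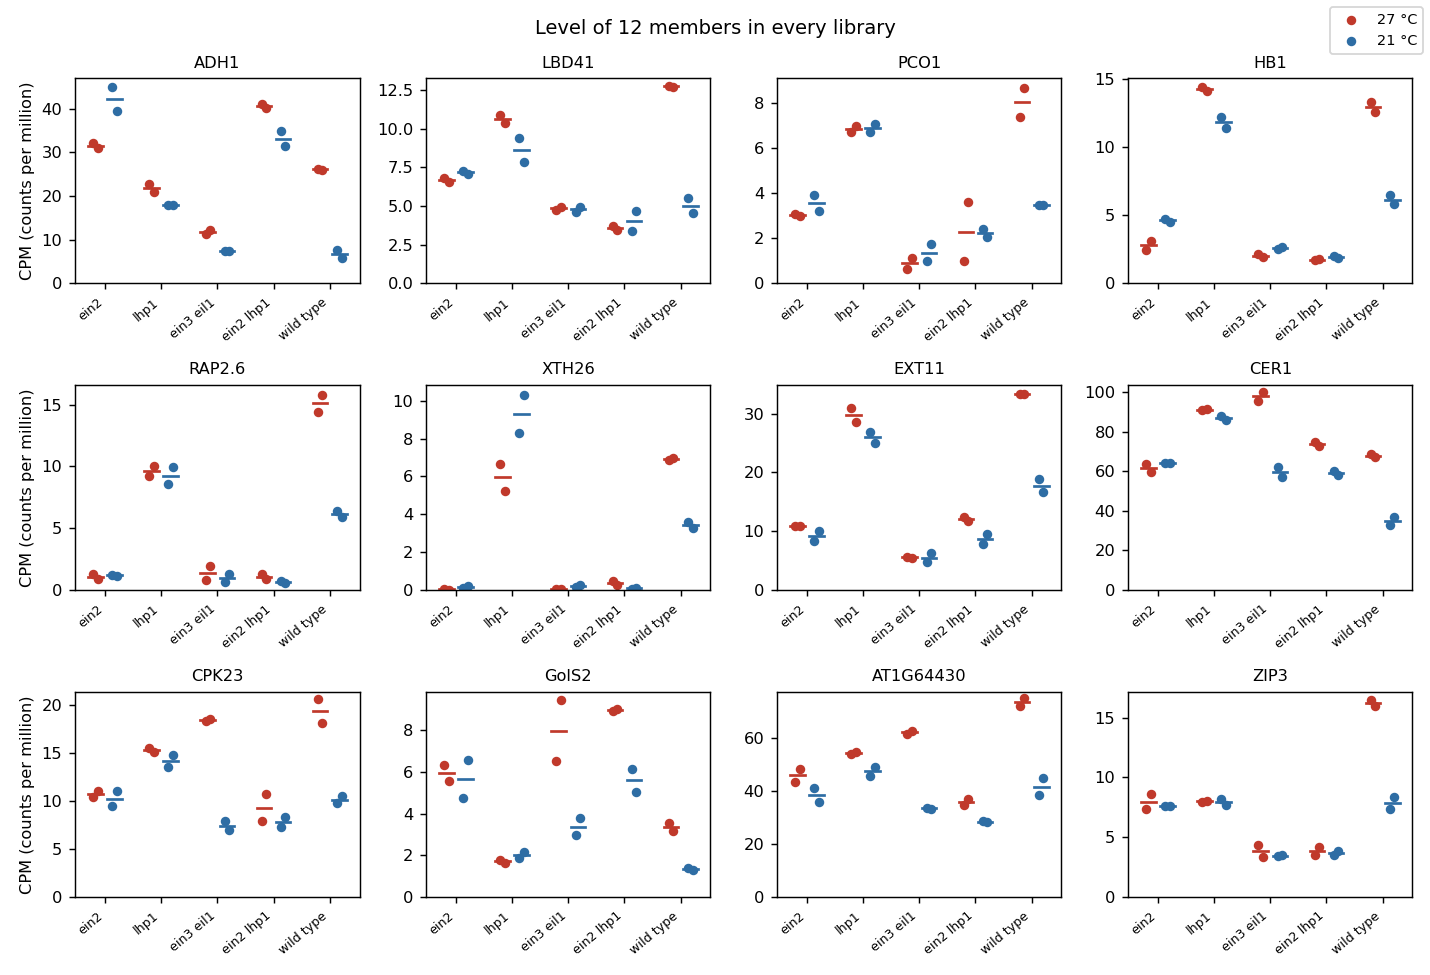
CPM of 12 members in every library (points) with the mean of the 2 replicates (line), for 27 °C (red, left) and 21 °C (blue, right) in each genotype. RAP2.6 and XTH26 lie lower in ein2, ein3 eil1 and ein2 lhp1 than in lhp1 and wild type. The wild-type 27 °C points lie above the 21 °C points in all 12 panels, which the choice of members favours.

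RAP2.6 and XTH26 were lower in the 3 ethylene-signalling genotypes than in lhp1 and wild type, and there XTH26 alone was near 0. RAP2.6 (AT1G43160, chr1:16263805-16264945, plus strand) had 1.27 and 0.886 CPM in ein2 at 27 °C and 1.22 and 1.14 CPM at 21 °C. It had 9.20 and 10.0 CPM in lhp1 at 27 °C against 8.55 and 9.93 CPM at 21 °C, and 14.4 and 15.8 CPM in wild type at 27 °C against 6.39 and 5.90 CPM at 21 °C. The ein2 libraries did not overlap those of lhp1 or wild type at either temperature.

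XTH26 (AT4G28850, chr4:14244290-14246037, plus strand) encodes a xyloglucan endotransglucosylase/hydrolase, an enzyme that cuts and rejoins xyloglucan in the cell wall. Its CPM was 0.0747 and 0 in ein2 at 27 °C against 0.128 and 0.201 at 21 °C, and 6.66 and 5.24 in lhp1 at 27 °C against 8.31 and 10.3 at 21 °C. Wild type had 6.87 and 6.95 CPM at 27 °C against 3.59 and 3.25 CPM at 21 °C. In lhp1 the warm libraries lay below the cool ones. EXT11, a locus named for the extensins of the cell wall but annotated as a pseudogene, had 10.9 CPM in both ein2 libraries at 27 °C against 8.39 and 10.1 CPM at 21 °C, 31.0 and 28.6 CPM in lhp1 at 27 °C against 26.9 and 25 CPM at 21 °C, and 33.4 CPM in both wild-type libraries at 27 °C against 18.8 and 16.6 CPM at 21 °C. The 4 lhp1 libraries lay between the warm and the cool wild-type libraries.

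Among the cuticle genes, CER1 (AT1G02205, chr1:418416-422579, plus strand), which is needed to make the alkanes of cuticular wax, had 63.8 and 59.7 CPM in ein2 at 27 °C against 64.3 CPM in both libraries at 21 °C. It had 90.8 and 91.4 CPM in lhp1 at 27 °C against 88.0 and 85.8 CPM at 21 °C, and 68.4 and 67.1 CPM in wild type at 27 °C against 33.0 and 36.8 CPM at 21 °C. No ein2 or lhp1 library of CER1 overlapped the cool wild-type libraries. MYB94, a transcription factor of wax synthesis, averaged 10.1 CPM in ein2 at 27 °C against 9.64 at 21 °C, 14.3 CPM in lhp1 at 27 °C against 11.8 at 21 °C, and 13.7 CPM in wild type at 27 °C against 6.67 at 21 °C.

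Genes of sugar metabolism and of transport differed in where they stood. GolS2, a galactinol synthase of raffinose synthesis, had 6.35 and 5.56 CPM in ein2 at 27 °C against 4.74 and 6.56 CPM at 21 °C, 1.78 and 1.65 CPM in lhp1 at 27 °C against 1.85 and 2.14 CPM at 21 °C, and 3.54 and 3.18 CPM in wild type at 27 °C against 1.40 and 1.30 CPM at 21 °C. All ein2 libraries exceeded, and all lhp1 libraries lay below, the warm wild-type libraries. ZIP3, a zinc transporter gene, had 7.39 and 8.58 CPM in ein2 at 27 °C against 7.63 and 7.57 CPM at 21 °C, 7.95 and 8.04 CPM in lhp1 at 27 °C against 8.16 and 7.73 CPM at 21 °C, and 16.5 and 16 CPM in wild type at 27 °C against 7.36 and 8.36 CPM at 21 °C. Every ein2 and lhp1 library of ZIP3 lay close to the cool wild-type pair and far below the warm pair.

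UMAMIT36, of a family of amino acid transporters, averaged 2.36 CPM in ein2 at 27 °C against 2.07 at 21 °C, 2.02 CPM in lhp1 at 27 °C against 2.11 at 21 °C, and 6.45 CPM in wild type at 27 °C against 2.24 at 21 °C. AT1G52000, a mannose-binding lectin gene, averaged 16.7 CPM in ein2 at 27 °C against 23.7 at 21 °C, 8.56 CPM in lhp1 at 27 °C against 6.96 at 21 °C, and 15.1 CPM in wild type at 27 °C against 5.23 at 21 °C. CPK23, a calcium-dependent protein kinase gene, had 10.4 and 11.1 CPM in ein2 at 27 °C against 9.48 and 11 CPM at 21 °C, 15.5 and 15.1 CPM in lhp1 at 27 °C against 13.6 and 14.8 CPM at 21 °C, and 20.7 and 18.1 CPM in wild type at 27 °C against 9.79 and 10.5 CPM at 21 °C. The warm and cool libraries of CPK23 overlapped in ein2 and were apart in wild type, a pattern that the choice of members favours.

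AT1G19530 and AT1G19540 are the only members that lie next to each other, on the plus strand of chromosome 1, with 603 bases between them and no tested gene in the gap. AT1G19530 averaged 1.85 CPM in ein2 at 27 °C against 1.76 at 21 °C, 7.28 CPM in lhp1 at 27 °C against 6.55 at 21 °C, and 8.02 CPM in wild type at 27 °C against 2.33 at 21 °C. AT1G19540, an NmrA-like gene, averaged 4.05 CPM in ein2 at 27 °C against 3.33 at 21 °C, 3.97 CPM in lhp1 at 27 °C against 4.26 at 21 °C, and 4.93 CPM in wild type at 27 °C against 2.51 at 21 °C. AT1G19530 stood near its warm wild-type mean in lhp1 and below its cool mean in ein2, whereas AT1G19540 stood at similar levels in both mutants.

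The ein3 eil1 and ein2 lhp1 libraries took no part in the choice of members, so warming was tested there. All 87 members were among the 21987 genes tested with edgeR's quasi-likelihood method on TMM-scaled counts, and a gene was called at a Benjamini-Hochberg adjusted p under 0.05. The log2 fold changes below are from this fit, which sets the median of all genes to about 0. They are therefore lower than the CPM ratios in ein3 eil1. In ein3 eil1, 37 members rose on warming and 6 fell, where 16.9% of all genes tested rose and 19.9% fell. The median log2 fold change of the members was 0.36, against 0.00 for all genes tested and 0.65 for the 459 other warm-induced genes, of which 342 rose. In ein2 lhp1, 26 members rose and 5 fell, where 14.3% of all genes tested rose and 14.7% fell. Their median was 0.21, against 0.57 for the other warm-induced genes, of which 313 rose. With a log2 fold change of at least 0.5 asked as well, 22 members rose in ein3 eil1, where 5.82% of all genes tested did, and 16 rose in ein2 lhp1, where 5.35% did. Above 0 lay 65 of 87 members in ein3 eil1, against 11058 of the 21987 genes tested. The count in ein2 lhp1 was 61 of 87, against 11073 of the genes tested.

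Of the 87 members, 15 rose in both backgrounds, 22 rose in ein3 eil1 and were not called in ein2 lhp1, and 10 rose in ein2 lhp1 and were not called in ein3 eil1. Another 31 were called in neither. Of all genes tested, 7.66% rose in both, 8.94% rose in ein3 eil1 and were not called in ein2 lhp1, 5.66% rose in ein2 lhp1 and were not called in ein3 eil1, and 53.1% were called in neither, against 17.2%, 25.3%, 11.5% and 35.6% of the members. A call in 1 background alone does not show a difference between them. In the authors' deposited table for ein3 eil1, 23 members were higher and 1 was lower at an adjusted p under 0.05, where 12.5% and 16.4% of the genes with an adjusted p were. In the authors' deposited table for ein2 lhp1, 12 were higher and 2 lower, where 8.82% and 9.54% of the genes were. Without replicate 2 of ein2 lhp1 at 27 °C, 17 members rose in ein2 lhp1. The few decreases were less stable, with 3 in ein3 eil1 without replicate 2 at 21 °C or replicate 1 at 27 °C and 2 without replicate 2 at 27 °C. In ein2 lhp1 there were 2 without replicate 1 at 21 °C and 3 without replicate 1 at 27 °C. Of the 27 members kept with TMM library sizes, 9 rose and 3 fell in ein3 eil1 with a median of 0.17, and 5 rose and 3 fell in ein2 lhp1 with a median of 0.25. Of the 22 members kept both with TMM library sizes and with a trend over exon length removed, 7 rose and 2 fell in ein3 eil1, and their median there was -0.02, against 0.36 for all members. In ein2 lhp1, 5 of the 22 rose and 3 fell, with a median of 0.30.

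**Figure D4:**
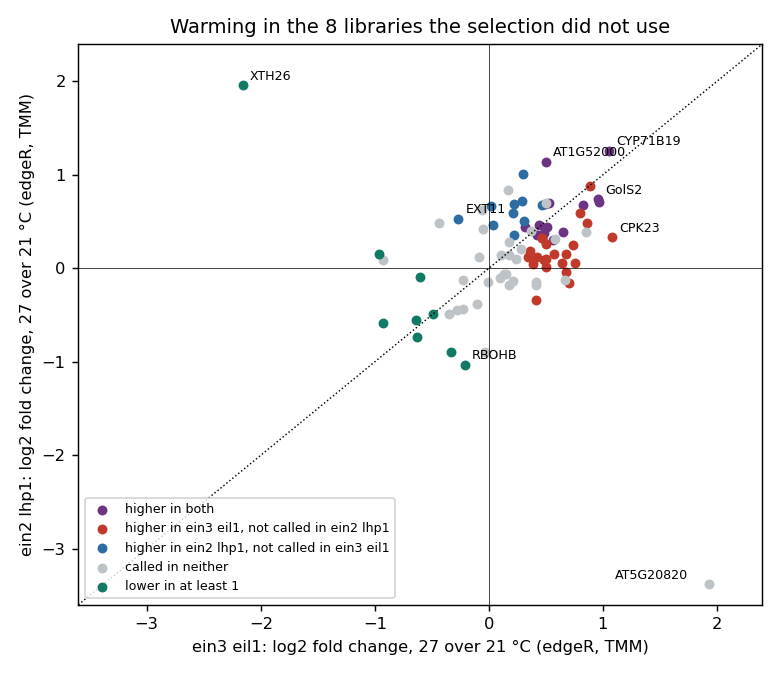
Log2 fold change on warming (27 over 21 °C, edgeR, TMM) of the 87 members in ein2 lhp1 (vertical axis) and in ein3 eil1 (horizontal axis), coloured by call at an adjusted p under 0.05. The dotted line marks equal change. The label RBOHB stands beside the lowest called point, at -1.03 in ein2 lhp1. XTH26 lies at 1.96 in ein2 lhp1 and -2.16 in ein3 eil1, and AT5G20820, at the lower right, rests on 0 counts in ein2 lhp1 at 27 °C.

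In ein3 eil1 the largest called increases were those of CPK23, CYP71B19, AT4G37480, GolS2 and DOT3. CPK23 read 18.4 and 18.6 CPM at 27 °C against 7.87 and 7.02 CPM at 21 °C, a log2 fold change of 1.08 ± 0.123 (SE, edgeR adjusted p = 1.49e-11). The groups were far apart, and the warm libraries lay within the range of warm wild type. GolS2 read 6.54 and 9.44 CPM at 27 °C against 2.98 and 3.78 CPM at 21 °C (0.96 ± 0.195, edgeR adjusted p = 3.56e-05). AT4G37480, a DnaJ-domain chaperone gene, read 9.61 and 9.08 CPM at 27 °C against 4.26 and 3.83 CPM at 21 °C (0.97 ± 0.171, edgeR adjusted p = 2.46e-06). None of these groups overlapped. DOT3, an NPH3-family gene of vein patterning, rose by 0.89 ± 0.256 (edgeR adjusted p = 0.00346). CYP71B19, a cytochrome P450 gene, rose by 1.05 ± 0.389 (edgeR adjusted p = 0.0272), and that call was lost in a fit of the 8 libraries of ein3 eil1 and ein2 lhp1 alone (adjusted p = 0.059), without replicate 2 at 21 °C (adjusted p = 0.226) or without either replicate at 27 °C (adjusted p = 0.113 and 0.0513).

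Most of the members named for their CPM in warm wild type also rose in ein3 eil1. CER1 read 95.4 and 100 CPM at 27 °C against 62.1 and 57.0 CPM at 21 °C, a log2 fold change of 0.48 ± 0.0544 (edgeR adjusted p = 1.45e-11). AT1G64430, a pentatricopeptide repeat gene, read 61.4 and 62.5 CPM at 27 °C against 33.6 and 33.2 CPM at 21 °C (0.65 ± 0.0681, edgeR adjusted p = 8.15e-13). In both genes the warm and cool libraries were far apart. AT5G52280, annotated as related to myosin heavy chains, rose by 0.68, AT1G61590, a protein kinase gene, by 0.50, NET1B, of a family of actin-binding proteins, by 0.39, AT3G49490 by 0.36 and AT3G62040, a haloacid dehalogenase-like hydrolase gene, by 0.34. EXT11 had -0.27 (edgeR adjusted p = 0.109). Without replicate 2 at 21 °C, AT3G62040 was no longer called (adjusted p = 0.072).

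Among the low-oxygen genes, ADH1 rose in ein3 eil1, with 11.4 and 12.2 CPM at 27 °C against 7.49 and 7.38 CPM at 21 °C (0.42 ± 0.108, edgeR adjusted p = 0.00114). HB1 fell, with 2.15 and 1.91 CPM at 27 °C against 2.48 and 2.69 CPM at 21 °C (-0.60 ± 0.199, edgeR adjusted p = 0.0122). PCO1 fell, with 0.630 and 1.13 CPM at 27 °C against 0.994 and 1.72 CPM at 21 °C (-0.96 ± 0.332, edgeR adjusted p = 0.0166), and its warm and cool libraries overlapped. Neither fall held under all alternatives. In a fit of the 8 libraries alone the adjusted p was 0.093 for HB1 and 0.0817 for PCO1. Without replicate 2 at 21 °C the adjusted p was 0.136 for HB1 and 0.548 for PCO1, without replicate 2 at 27 °C it was 0.0941 for HB1, and without replicate 1 at 27 °C it was 0.291 for PCO1. HB1 was also not called once the trend over exon length was removed (adjusted p = 0.0713), and PCO1 not by DESeq2 (adjusted p = 0.129). LBD41 had -0.23 (edgeR adjusted p = 0.291), HRA1 -0.01 (0.973), RBOHB -0.21 (0.567) and SRO5 0.85 (0.0859).

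AT5G10580, a gene of unknown function, fell in ein3 eil1 with 10.7 and 10.8 CPM at 27 °C against 15.2 and 13.3 CPM at 21 °C (-0.64 ± 0.120, edgeR adjusted p = 8.72e-06). In wild type it had 19.7 and 21.9 CPM at 27 °C against 11.8 and 9.52 CPM at 21 °C, which is the opposite order. The other called decreases were AT2G18150, a peroxidase gene (-0.93), AT2G28780 (-0.49) and XTH26. AT2G18150 lost its call without replicate 1 at 21 °C (adjusted p = 0.143) or without either replicate at 27 °C (0.177 and 0.056), and AT2G28780 without replicate 1 at 21 °C (0.1) or replicate 2 at 27 °C (0.112).

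In ein2 lhp1 the largest called increases were those of XTH26, CYP71B19, AT1G52000, AT1G19540 and GolS2. AT1G52000 read 9.74 and 12.4 CPM at 27 °C against 5.35 and 5.12 CPM at 21 °C, a log2 fold change of 1.14 ± 0.133 (edgeR adjusted p = 4.58e-11). CYP71B19 read 2.13 and 2.56 CPM at 27 °C against 1.05 and 0.994 CPM at 21 °C (1.26 ± 0.323, edgeR adjusted p = 0.00148). GolS2 read 8.92 and 9.05 CPM at 27 °C against 6.17 and 5.06 CPM at 21 °C (0.74 ± 0.188, edgeR adjusted p = 0.00141). These warm and cool groups did not overlap. AT1G19540 rose by 1.01 ± 0.234 (edgeR adjusted p = 0.000383), and without replicate 1 at 27 °C it had 0.59 (adjusted p = 0.118). Its neighbour AT1G19530 had 0.62 (edgeR adjusted p = 0.163).

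ADH1 rose in ein2 lhp1 too, with 41.2 and 40.2 CPM at 27 °C against 34.8 and 31.4 CPM at 21 °C (0.36 ± 0.0840, edgeR adjusted p = 0.000513). CER1 rose by 0.38 ± 0.0561 (edgeR adjusted p = 7.20e-08) and AT1G64430 by 0.39 ± 0.0735 (edgeR adjusted p = 1.37e-05). LBD41 read 3.68 and 3.43 CPM at 27 °C against 3.37 and 4.70 CPM at 21 °C (-0.13, edgeR adjusted p = 0.642). RAP2.6 had 1.31 and 0.874 CPM at 27 °C against 0.700 and 0.542 CPM at 21 °C (0.84 ± 0.358, edgeR adjusted p = 0.0687). Its groups did not overlap, but the level stayed far below that of lhp1 and wild type.

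The called decreases in ein2 lhp1 were those of RBOHB, AT4G39675, UMAMIT36, AT5G10580 and AT2G28780. RBOHB read 0.982 and 0.686 CPM at 27 °C against 1.85 and 1.66 CPM at 21 °C (-1.03 ± 0.322, edgeR adjusted p = 0.00972). AT4G39675, an uncharacterized gene, read 3.52 and 2.53 CPM at 27 °C against 6.43 and 5.18 CPM at 21 °C (-0.90 ± 0.198, edgeR adjusted p = 0.000188). UMAMIT36 read 1.64 and 2.15 CPM at 27 °C against 3.41 and 3.19 CPM at 21 °C (-0.73 ± 0.276, edgeR adjusted p = 0.0374). These groups did not overlap. AT4G39675 kept its call whichever of the 4 ein2 lhp1 libraries was left out. RBOHB lost it without replicate 1 at 21 °C (adjusted p = 0.0552) or replicate 2 at 27 °C (0.17), AT5G10580 without replicate 1 at 27 °C (0.0609), and UMAMIT36 without replicate 1 or 2 at 21 °C (0.127 and 0.0934), without replicate 1 at 27 °C (0.235) or with the 8 libraries alone (0.0694). AT2G28780 lost it without either replicate at 21 °C (0.128 and 0.0521) or without replicate 2 at 27 °C (0.52).

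The difference of the warming response, ein2 lhp1 minus ein3 eil1, was called for 10 members, 5 higher and 5 lower, where 9.52% of all genes tested were higher and 4.49% lower. The median difference over the members was -0.15. EXT11 read 12.4 and 11.8 CPM in ein2 lhp1 at 27 °C against 7.77 and 9.58 CPM at 21 °C, and 5.70 and 5.38 CPM in ein3 eil1 at 27 °C against 4.80 and 6.22 CPM at 21 °C. Its response was higher by 0.80 ± 0.182 (edgeR adjusted p = 0.000704). The ein2 lhp1 groups were apart and the ein3 eil1 groups overlapped. CPK23 read 7.94 and 10.7 CPM in ein2 lhp1 at 27 °C against 7.29 and 8.31 CPM at 21 °C, groups that overlapped, and the difference from its response in ein3 eil1 was -0.75 ± 0.182 (edgeR adjusted p = 0.00152). AT5G52280 read 13.7 and 20.5 CPM in ein2 lhp1 at 27 °C against 16.5 and 20.3 CPM at 21 °C, and 31.4 and 31.0 CPM in ein3 eil1 at 27 °C against 16 and 16.8 CPM at 21 °C. Its difference of response was -0.71 ± 0.144 (edgeR adjusted p = 0.000113). The 2 ein2 lhp1 libraries at 27 °C of this gene were farther apart than those of any other group.

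AT1G52000 (0.64), AT1G66100, a thionin gene (0.64), and AT3G27250 (0.42) had the other higher responses besides XTH26, and CVL1, a phosphoinositide phosphatase gene (-0.69), RPS4, a TIR-NBS-LRR immune receptor gene (-0.75), and AT1G61590 (-0.40) the other lower ones. CVL1, RPS4, AT1G66100 and AT3G27250 are named after their values were seen, to account for all 10. The calls of CPK23, CVL1 and AT5G52280 held without any 1 of the 8 libraries. EXT11 was not called without replicate 2 of ein3 eil1 at 21 °C (0.56, adjusted p = 0.0901), nor AT1G52000 without replicate 2 of ein2 lhp1 at 27 °C (0.46, adjusted p = 0.118). AT1G66100 was not called without replicate 2 of ein2 lhp1 at 21 °C (adjusted p = 0.092) or at 27 °C (0.0819) or of ein3 eil1 at 27 °C (0.0655). RPS4 was not called without replicate 2 of ein2 lhp1 at 21 °C (0.0872), replicate 1 of ein2 lhp1 at 27 °C (0.145), or replicate 2 of ein3 eil1 at 21 °C (0.106) or at 27 °C (0.0631). AT3G27250 kept its call only with replicate 1 of ein2 lhp1 at 21 °C left out, and AT1G61590 only without replicate 2 of ein3 eil1 at 21 °C or at 27 °C, among the 8 libraries left out in turn. With replicate 2 of ein3 eil1 at 21 °C left out, 2 responses were higher, and with replicate 2 of ein2 lhp1 left out at either temperature, 3 were. The number of lower ones was 3 without replicate 2 of ein2 lhp1 at 21 °C or replicate 1 at 27 °C.

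XTH26 was called in opposite directions in the 2 backgrounds, at very low counts. In ein2 lhp1 it had 12 and 8 counts at 27 °C against 2 and 4 counts at 21 °C, a ratio of CPM of 3.81 (95% exact counting interval 1.48 to 11.6). In ein3 eil1 it had 2 and 2 counts at 27 °C against 4 and 12 counts at 21 °C, a ratio of 0.251 (0.0610 to 0.777). The fitted difference of the responses was 4.12 ± 0.994 (edgeR adjusted p = 0.00158), and with replicate 2 of ein3 eil1 at 21 °C left out it was 3.70 (adjusted p = 0.0538). The increase in ein2 lhp1 was not called without replicate 1 at 21 °C (adjusted p = 0.137) or at 27 °C (0.211), nor the decrease in ein3 eil1 without replicate 2 at 21 °C (0.242) or either replicate at 27 °C (0.0974 and 0.0626). Both mates of a read pair were counted, so these intervals, which cover counting error only, are too narrow. AT5G20820, a SAUR-like gene, had 0 counts in both ein2 lhp1 libraries at 27 °C and 0 and 2 at 21 °C, so no fold is given for it. Without this gene the median over the members in ein2 lhp1 was 0.23.

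At a fixed temperature, the levels of the members in ein2 lhp1 and ein3 eil1 differed in both directions. At 27 °C, 18 members were higher and 26 lower in ein2 lhp1, where 24.6% and 21.6% of all genes tested were. At 21 °C, 19 were higher and 16 lower, where 17.1% and 14.3% were. ADH1 was higher in ein2 lhp1 by a log2 fold change of 2.09 ± 0.0921 at 27 °C (edgeR adjusted p = 7.45e-32) and by 2.15 ± 0.0989 at 21 °C (edgeR adjusted p = 2.72e-30). UMAMIT36 was higher by 1.49 at 27 °C and by 1.58 at 21 °C, and EXT11 by 1.42 and 0.61. PCO1 was higher by 1.74 at 27 °C, but its groups overlapped. It read 0.982 and 3.59 CPM in ein2 lhp1 against 0.630 and 1.13 CPM in ein3 eil1 there. DOT3 was lower in ein2 lhp1, with -1.99 ± 0.286 at 27 °C (edgeR adjusted p = 1.30e-08) and -1.98 ± 0.319 at 21 °C (edgeR adjusted p = 4.43e-07). LBD41 had -0.15 at 27 °C (edgeR adjusted p = 0.513) and -0.25 at 21 °C (0.285). ADH1 was thus high in both genotypes that carry ein2-5 and low in ein3 eil1, where its libraries lay between 7.38 and 12.2 CPM. Without replicate 1 of ein3 eil1 at 21 °C, 11 members were called higher at 21 °C, without replicate 1 of ein2 lhp1 at 21 °C 12 were, and without replicate 2 of ein3 eil1 at 21 °C 10 were called lower.

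The exon length of the members, as deposited, had a median of 1895 bases, against 1725 bases for all genes tested. Of the 30 members with at least 2500 bases of exon, 19 rose in ein3 eil1 with a median of 0.42, where 25.7% of all genes of that length rose and their median was 0.10. Of the 25 members under 1500 bases, 5 rose and 4 fell with a median of 0.18, where 10.5% of all genes of that length rose, 24.3% fell and their median was -0.09. In ein2 lhp1, 6 of the 30 long members rose, where 12.9% of all genes of that length did, and the medians of all genes were -0.01 in the short class and 0.00 in the long class. With a smooth trend over exon length removed from each library, the median of the members in ein3 eil1 was 0.31.

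**Figure D5:**
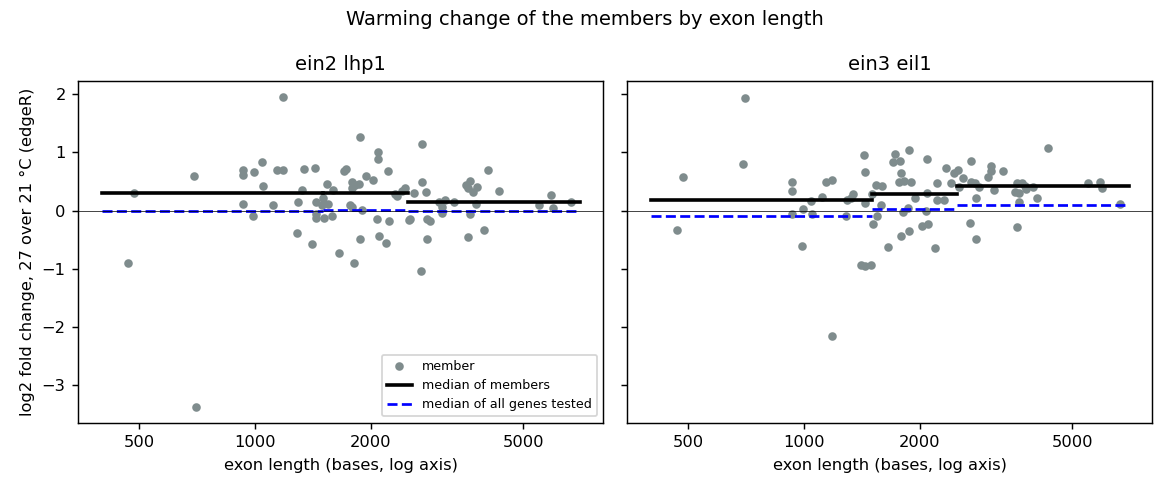
Log2 fold change on warming (27 over 21 °C, edgeR) of each member against its exon length in bases (log axis), in ein2 lhp1 (left) and ein3 eil1 (right), with the median of the members (black) and of all genes tested (dashed) in 3 length classes. In ein3 eil1 the median of all genes goes up with length, at -0.09, 0.02 and 0.10, and the median of the members is 0.18, 0.29 and 0.42.

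None of the 87 members is in the lists for growth and auxin, heat, ethylene, polycomb, INO80 and SWR1 or seed genes, which hold 90 genes with the tissue markers. In ein3 eil1, 11 of 16 growth and auxin genes and 8 of 10 heat genes rose, with medians of 0.45 and 1.84. In ein2 lhp1, 8 of 16 and 7 of 10 rose, with medians of 0.31 and 2.06. Of the 13 ethylene genes tested, 4 rose and 1 fell in ein3 eil1, and 6 rose and 1 fell in ein2 lhp1. Polycomb genes rose in 8 of 15 cases in ein3 eil1 and in 1 of 15 in ein2 lhp1, where 3 fell, and for INO80 and SWR1 genes the counts were 3 higher and 4 lower of 10 in ein3 eil1 and 1 lower in ein2 lhp1. Of the 13 seed genes, 9 rose in ein2 lhp1 and 1 rose and 6 fell in ein3 eil1. Of the 18 low-oxygen genes, 2 rose and 4 fell in ein3 eil1, and 2 rose and 3 fell in ein2 lhp1. Of all genes tested, 16.9% rose and 19.9% fell in ein3 eil1, and 14.3% rose and 14.7% fell in ein2 lhp1. The low-oxygen counts lie near these shares, and no list was tested as a set.

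The members are spread over the genome, with 26 on chromosome 1, 15 on chromosome 2, 13 on chromosome 3, 14 on chromosome 4 and 19 on chromosome 5. Chromosome 1 holds 29.9% of the members and 26.2% of the genes tested. Of the 87, 85 are protein coding. In addition, 29 members overlap a locus on the opposite strand, ADH1, SRO5, RBOHB, NET1B, AT1G19540, AT3G62040, AT4G37480, AT5G10580 and AT5G52280 among them. Reads were counted without regard to strand, so strand does not separate the 2 loci where they share bases. The overlap is between gene start and end, and how many exon bases are shared was not measured.

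In the 250 bases before the start, the G-box CACGTG was found in 11 members, or 12.6%, against 7.41% of the promoters of all genes tested and 10.5% of those of the other warm-induced genes. Those 11 are RAP2.6, ADH1, LBD41, FAR1, TBP1, MEE15, AT1G60095, AT1G62310, AT1G70950, AT2G28780 and AT5G59900. The EIN3 type ATGNANCT was found in 12.6% of the members and 12.4% of all promoters, the PBE-box CACATG in 11.5% and 11.3%, the GCC-box GCCGCC in 2.30% and 1.98%, and the heat element GAANNTTC in 9.20% and 9.26%. The site II letters TGGGCC were in 8.05% of the members and 15.7% of all promoters, and the GAGA repeat GAGAGAGA in 8.05% and 4.65%. Both strands were searched, and the G-box and the ABA-response type ACGTGGC (4.60% and 3.85%) overlap in part. These shares are given as a description.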

How the data were processed

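The members, and the gene lists used beside them, were chosen with earlier results of these data known. The deposited counts are whole-number read counts per gene; per the file headers they came from featureCounts 2.0.3 with the Araport11 annotation, paired reads counted mate by mate and without strand. Between 78.2 and 83.6% of counts from 5 to 50 were even. The submitters' processing notes name FastQC, Trim Galore, STAR, Subread 2.0.1, DESeq2 and the TAIR10 build. The authors' deposited tables give log2 fold changes and adjusted p-values from DESeq2, with the model not given in the sources used here. The column names give both temperatures 1 °C higher than the labels, and the labels were followed.

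Columns were assigned to samples by name. Counts of all 20 libraries were fitted in 1 model with edgeR 4.0.16 (R 4.3.3): TMM library sizes, filterByExpr, glmQLFit and glmQLFTest, a mean per group, 10 residual degrees of freedom, 21987 genes tested, and Benjamini-Hochberg adjustment over all of them. The fit was tested on simulated counts. Only contrasts among the 8 ein3 eil1 and ein2 lhp1 libraries are read, since the other 12 chose the members. Named are the 8 members with the highest CPM in wild type at 27 °C, the 6 with the largest change there, the 5 largest called increases and decreases in each tested background, the 4 smallest p of the difference, and the genes next to each limit; others were named after their values were seen. The alternatives were DESeq2 1.42.0 (test and size factors), other count filters, the 8 libraries alone, no ribosomal RNA region genes, a length trend removed by loess, replicate blocks and each replicate left out. Replicates differed by more than independent counts would (chi-square per degree of freedom from 2.92 to 7.37). Counting both mates of a pair also raises that value, so part of the excess is not spread between samples. All 87 members have the same coordinates in RefSeq's TAIR10.1 table.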

Additional observations from a re-analysis of the deposited data

Results flagged for a closer look

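The warming response differed between ein2 lhp1 and ein3 eil1, by a test of the difference itself, for 5 members with a higher and 5 with a lower response in ein2 lhp1. Over all genes tested, 9.52% had a higher and 4.49% a lower response, so the members' counts, 5.75% each, lie near that background. Higher were XTH26 (log2 difference 4.12, on very few counts), EXT11 (0.80), AT1G52000 (0.64), AT1G66100 (0.64) and AT3G27250 (0.42). Lower were CPK23 (-0.75), RPS4 (-0.75), AT5G52280 (-0.71), CVL1 (-0.69) and AT1G61590 (-0.40). In ein3 eil1 the warming changes of CPK23, CVL1 and AT5G52280 were 1.08, 0.76 and 0.68, whereas in ein2 lhp1 they were 0.33, 0.06 and -0.04. Of the 8 libraries left out in turn, 7 took away the call of AT3G27250, 6 that of AT1G61590, 4 that of RPS4 and 3 that of AT1G66100. With the length trend removed the adjusted p was 0.0664 for AT3G27250, 0.0576 for RPS4 and 0.0692 for AT1G66100. XTH26 (adjusted p = 0.0538), EXT11 (0.0901) and AT1G52000 (0.118) each lost the call without 1 library.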

How the results depend on the processing

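The rule kept 32 genes with TMM library sizes, 48 with the length trend removed, 22 with a wild-type change of at least 1, 14 with ein2 and lhp1 changes of 0 or lower, and 81 to 133 without 1 replicate. In ein3 eil1, 3 members were called lower with the 8 libraries alone, 22 were higher with a change of at least 0.5 (5.82% of all genes tested), and the median was 0.31 with the length trend removed and 0.32 with the replicate block as well. In ein2 lhp1, 16 were higher with a change of at least 0.5 (5.35% of all genes). With the length trend removed, with or without the replicate block, 3 members had a higher response in ein2 lhp1 and the median at 21 °C was 0.01, against -0.02; the cause was not tested. Leaving out 1 replicate gave 27 to 30 higher, 2 to 6 lower and medians of 0.32 to 0.38 in ein3 eil1, and 17 to 22, 2 to 5 and 0.15 to 0.28 in ein2 lhp1. It gave 2 to 6 higher and 3 to 6 lower responses (median -0.14 to -0.08), 11 to 14 higher and 10 to 15 lower at 21 °C (median -0.06 to -0.01), and 13 to 17 higher and 20 to 26 lower at 27 °C (median -0.20 to -0.11). The replicate numbers do not pair the samples (correlations of deviations from -0.068 to 0.004). The replicate block alone left all 44 calls of named genes on the same side, with 37 members higher in ein3 eil1 and 25 in ein2 lhp1. At 1 to 20 counts, as for XTH26 and AT5G20820, depth limits the folds.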
